A study of Mus musculus with 4 samples.

Results

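The genes of the integrated stress response and the unfolded protein response were examined in mouse embryos at the 2-cell stage. The 36 genes were chosen by name, as the subunits of eIF2 and eIF2B, the eIF2alpha kinases and phosphatase subunits, the ATF4 branch, and the sensors and targets of the ATF6 and XBP1 branches, and all 36 were found among the 30049 Ensembl genes of the deposited table. The choice was made with earlier results of these data known. RNA was sequenced from 2 libraries of control embryos and 2 libraries of DMSO-treated embryos. All embryos were wild type, of the background BDF1*BDF1 F2. They were collected as zygotes 18 h after hCG and cultured in KSOM, a medium for preimplantation embryos, for 24 h, without supplement in the control group and with 2% dimethyl sulfoxide (DMSO) in the treated group. For each group 50 embryos at the 2-cell stage were lysed for cDNA synthesis, and how they were divided between the 2 libraries is not given in the sources used here. Nothing in them states that the libraries of a group came from separate cultures, so the p-values measure the spread between these libraries, which may be technical.

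Both responses adjust protein synthesis to stress. In the integrated stress response a kinase (Eif2ak1 for haem shortage and mitochondrial stress, Eif2ak2 for double-stranded RNA, Eif2ak3 for stress of the endoplasmic reticulum, or ER, and Eif2ak4 for amino acid shortage) phosphorylates the alpha subunit of eIF2, the factor that brings the initiator tRNA to the ribosome. Phosphorylated eIF2 blocks eIF2B, the factor that recharges eIF2 with GTP, so that most translation slows while that of Atf4 mRNA increases. Atf4 then activates genes of amino acid supply and stress. The unfolded protein response joins Eif2ak3 with Atf6 and with Ern1 (IRE1), which splices Xbp1 mRNA, and it raises the chaperones of the ER. In the mouse, the embryonic genome becomes broadly active at the 2-cell stage, while stored maternal mRNA is being cleared. The values here are mRNA levels per gene, and neither the phosphorylation of eIF2alpha nor the splicing of Xbp1 was analysed here.

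Levels are given in TPM, in which the reads of a gene are divided by the length of its transcripts and set against those of the whole library. The genes of the table summed to 768174 TPM in control replicate 1, 780527 TPM in control replicate 2, 772487 TPM in DMSO replicate 1 and 799166 TPM in DMSO replicate 2, and the depth of the libraries is unknown. A TPM value is a share of a library, so that less of a transcript in each embryo cannot be told apart from more of the other RNA. Mitochondrially encoded genes made up 10.8% and 12.4% of this sum in control against 15.3% and 21.7% in DMSO-treated embryos, and their part in the results was examined only by rescaling TPM without them. The test was limma, a linear model with variances moderated across genes, on log2(TPM + 1) of the 12038 genes that averaged 1 TPM or more, with Benjamini-Hochberg adjustment over all of them. A gene is termed called at an adjusted p-value under 0.05, and every adjusted p-value below is from limma. On this scale the fold changes of weakly expressed genes are understated.

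The identity of the libraries was examined with marker genes. Of 16 markers of oocytes and 2-cell embryos, the most abundant was Oosp1, a secreted oocyte protein, at 877 and 576 TPM in control against 2086 and 1763 TPM in DMSO-treated embryos, whereas Nlrp5 was at no more than 0.142 TPM in any library. These 16 markers summed to 1848 and 1227 TPM in control and to 4949 and 3704 TPM in DMSO-treated embryos. Of the 15 tested, 5 were called higher and 0 lower, beside 6.42% and 14.1% of all genes tested. The part of this shift in the results below was not tested. The 14 markers of cumulus and granulosa cells, which surround the oocyte, summed to between 2.67 and 5.20 TPM per library, the most abundant being Cyp11a1 (up to 2.10 TPM), and Inhba, Amh and Lhcgr were listed at 0 in all 4 libraries.

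The promoters of several members carry letters known as binding motifs of these pathways, and they are shown first as the letters through which ATF6, XBP1 and ATF4 are known to bind. RefSeq promoter windows (GRCm38.p6, 250 bases before to 50 after a start) were found for 32 of the 36 genes. Of these, 6 held the ER stress response element (ERSE, on either strand), which was found for 0.137% of the 27025 genes with a window. Members were chosen partly as targets of the branches known to bind these letters, so this comparison is not an independent one. Herpud1 held ERSE-II, found for 0.0444% of genes, and 0 members held the unfolded protein response element UPRE (TGACGTGG), found for 0.714%. The letters CCACG are common to ERSE, ERSE-II and, on the other strand, UPRE, and none of the matches of these members overlapped another. The amino acid response element bound by Atf4 was searched as TGATGNAA and was found for 6 members, Asns, Atf3, Chac1, Eif2s3x, Herpud1 and Trib3, against 4.51% of genes. Of these, Atf3 and Chac1 of the ATF4 branch and Eif2s3x of eIF2 are shown. Hsp90b1 held a further ERSE match, at chr10:86705633-86705661, which is not shown. A match describes letters and is not a measured binding site. In the stretches below, 5′ to 3′ on the strand of the gene, capitals mark the match.
Hspa5 (ERSE, chr2:34772020-34772048, plus strand): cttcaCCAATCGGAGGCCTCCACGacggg
Calr (ERSE, chr8:84847070-84847098, minus strand): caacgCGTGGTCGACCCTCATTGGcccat
Canx (ERSE, chr11:50325795-50325823, minus strand): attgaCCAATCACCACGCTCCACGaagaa
Dnajc3 (ERSE, chr14:118937822-118937850, plus strand): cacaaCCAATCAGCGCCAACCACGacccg
Pdia6 (ERSE, chr12:17266486-17266514, plus strand): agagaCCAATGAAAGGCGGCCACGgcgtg
Hsp90b1 (ERSE, chr10:86705528-86705556, minus strand): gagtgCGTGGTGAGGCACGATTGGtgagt
Herpud1 (ERSE-II, chr8:94386372-94386392, plus strand): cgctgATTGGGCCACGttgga
Atf3 (amino acid response element, chr1:191183431-191183448, minus strand): cgcacTTGCATCAccaag
Chac1 (amino acid response element, chr2:119351044-119351061, plus strand): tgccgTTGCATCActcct
Eif2s3x (amino acid response element, chrX:94212735-94212752, minus strand): atcatTTTCATCAggtct

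Among the 36 members, 7 of the 8 genes of eIF2 and eIF2B were down-regulated in DMSO-treated embryos. This count is not an independent result, since the genes were chosen with earlier results of these data known. The authors had listed recycling of eIF2:GDP among the pathways enriched in their differentially expressed genes. No member of the ATF4 branch, the ATF6 and XBP1 sensors or the ER chaperones was called in either direction. Of the 36 members, 31 passed the filter on low values. limma called 8 of them lower and 0 higher, against a background of 14.1% of all genes tested called lower and 6.42% called higher (after quantile normalization, 5 members lower and 0 higher against 9.31% and 8.94%). Of the 8, 7 were subunits of eIF2 or eIF2B and 1 was the kinase Eif2ak1. With a filter at a mean of 5 TPM, limma called the same 8 of 23 members lower, beside 22.5% of 7470 genes (10.3% higher). The median log2 fold change was -0.42 over the 31 members, -1.42 over the 8 subunits and -0.040 over the other 23, beside -0.089 over all genes tested. The DMSO libraries lay below both control libraries for 11 of the 31 members tested and above both for 6, while over all genes tested this held for 38.7% and 31.1%. When 1 library was left out, limma called 0 members and 0 of all genes without control replicate 1, control replicate 2 or DMSO replicate 1, and it called 7 members lower without DMSO replicate 2, against 10.6% of all genes lower and 5.04% higher. Such a fit sets 1 library against 2, and a lost call in it does not show a smaller change: the log2 fold change of Eif2s1 then ran from -1.70 to -1.25 and that of Eif2s2 from -1.91 to -1.64. The unadjusted p-value was under 0.05 for 10, 7 and 9 of the 31 members in the first 3 of these fits, beside 3745, 2602 and 3078 of the 12038 genes, and for 8 members and 4835 genes with all 4 libraries. With no filter on low values limma called 0 members and 0 of all genes, and the unadjusted p-value was under 0.05 for 9 of 36 members and 5368 of 22257 genes.

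**Figure D1:**
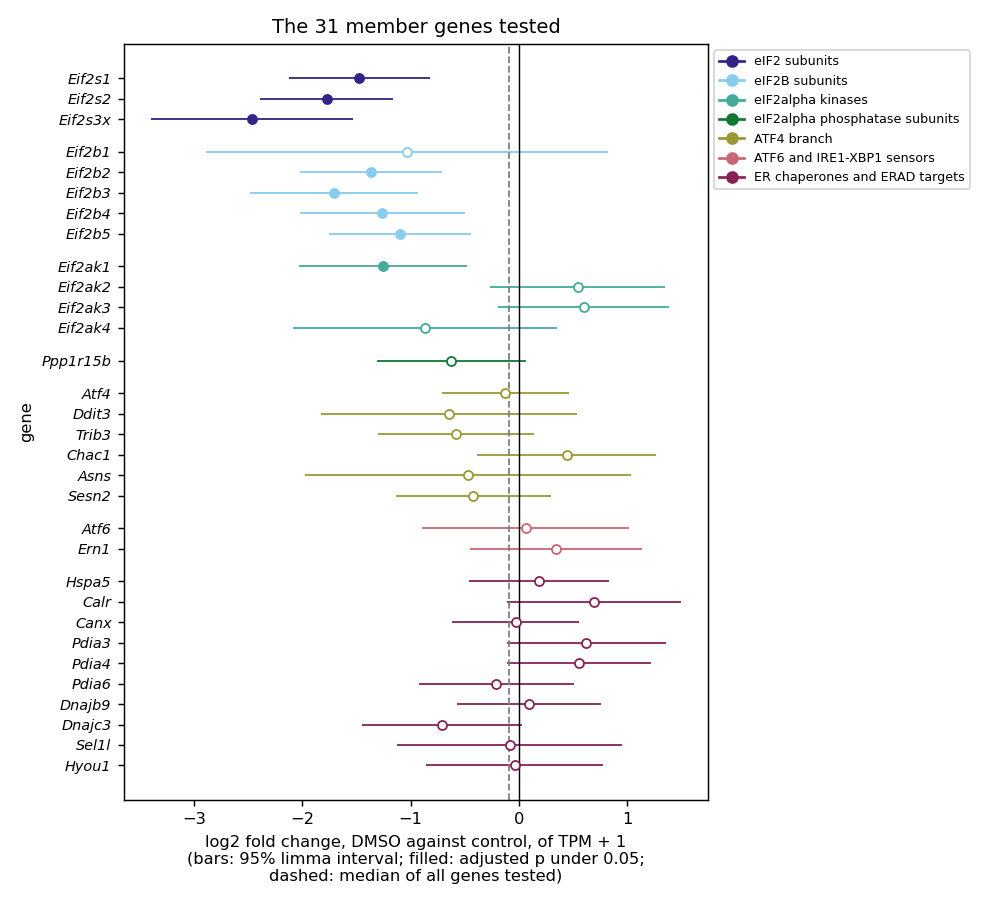
Log2 fold changes of TPM + 1 (x axis) of the 31 members tested (y axis), coloured by role, with 95% intervals from limma; filled points passed an adjusted p-value of 0.05 and the dashed line is the median of all genes tested. The 8 subunits of eIF2 and eIF2B lie between -2.47 and -1.03, and 7 of them and Eif2ak1 are filled.

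All 3 subunits of eIF2 were called lower, beside 14.1% of all genes tested, with log2 fold changes from -2.47 to -1.48. Eif2s1 (ENSMUSG00000021116, chromosome 12 of GRCm38 from 78861819 to 78887010), the alpha subunit that the stress kinases phosphorylate, was at 158 and 162 TPM in control and at 48.4 and 66.6 TPM in DMSO-treated embryos. Its control libraries nearly coincided and both DMSO libraries were far below them, with a log2 fold change of -1.48 (standard error 0.27, adjusted p = 0.0228). Eif2s2 (ENSMUSG00000074656, chromosome 2 from 154871410 to 154892935), the beta subunit, was at 258 and 300.2 TPM against 73.3 and 88.4 TPM. Its log2 fold change was -1.78 (standard error 0.26, adjusted p = 0.0181), and the groups did not overlap. Eif2s3x (ENSMUSG00000035150, chromosome X from 94188707 to 94212862), the gamma subunit that binds GTP and the initiator tRNA, was the least abundant at 17.0 and 10.0 TPM, and in the DMSO libraries it stood at 1.14 and 2.03 TPM. The mean TPM was 8.51-fold higher in control, and the log2 fold change on the TPM + 1 scale was -2.47 (standard error 0.39, adjusted p = 0.0198). Of its 31-base words 35.6% also occur in transcripts of other genes, so its level is less certain. The gene that shares most of them, Gm2223, was listed at 0 in every library. That value comes from the same assignment of reads, and how shared reads were divided was not tested. Its Y-linked paralogue Eif2s3y was at 17.6 and 14.0 TPM against 8.69 and 11.6 TPM and was not called (log2 fold change -0.60, adjusted p = 0.196). Eif2s3x therefore made up 49.1% and 41.7% of the summed TPM of the pair in control and 11.6% and 15.0% in DMSO-treated embryos.

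Of the 5 subunits of eIF2B, 4 were called lower, beside 14.1% of all genes tested, with log2 fold changes from -1.71 to -1.10. Eif2b5 (ENSMUSG00000003235, chromosome 16 from 20498817 to 20509323), the epsilon subunit that carries the exchange activity, was at 77.7 and 73.1 TPM in control and at 30.2 and 39.9 TPM in DMSO-treated embryos. The groups did not overlap (log2 fold change -1.10, standard error 0.27, adjusted p = 0.0386). Eif2b3, the gamma subunit and partner of epsilon in the catalytic part, was at 53.6 and 67.6 TPM against 14.0 and 22.4 TPM. This was the largest change among the 4 called subunits of the complex (log2 fold change -1.71, adjusted p = 0.0239). The beta and delta subunits belong to the regulatory part that senses phosphorylated eIF2. Eif2b2 was at 62.1 and 75.4 TPM against 23.6 and 28.4 TPM (log2 fold change -1.37, adjusted p = 0.0258), and Eif2b4 at 49.7 and 58.3 TPM against 17.3 and 27.7 TPM (log2 fold change -1.26, adjusted p = 0.0401). Both had groups that did not overlap. Eif2b4 and Eif2b5 were not called after quantile normalization, without mitochondrially encoded genes or without a variance trend, and Eif2b4 also not after median-ratio scaling. Over the alternatives with all 4 libraries, the log2 fold change ran from -1.30 to -1.02 for Eif2b4 and from -1.12 to -0.82 for Eif2b5. Eif2b1, the alpha subunit of the regulatory part, stood apart by its low level, 4.55 and 3.38 TPM in control, 4.82 TPM in DMSO replicate 1 and listed at 0 in DMSO replicate 2. Its groups overlapped and it was not called (log2 fold change -1.03, 95% interval -2.89 to 0.83, adjusted p = 0.346), and the value was 0.24 without DMSO replicate 2.

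Summed over each complex, the subunits of eIF2 were at 433 and 472 TPM in control and at 123 and 157 TPM in DMSO-treated embryos, and those of eIF2B at 248 and 278 TPM against 89.9 and 118 TPM. The other 28 members summed to 1039 and 1130 TPM in control and to 1041 and 1146 TPM in DMSO-treated embryos, so these sums overlapped.

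**Figure D2:**
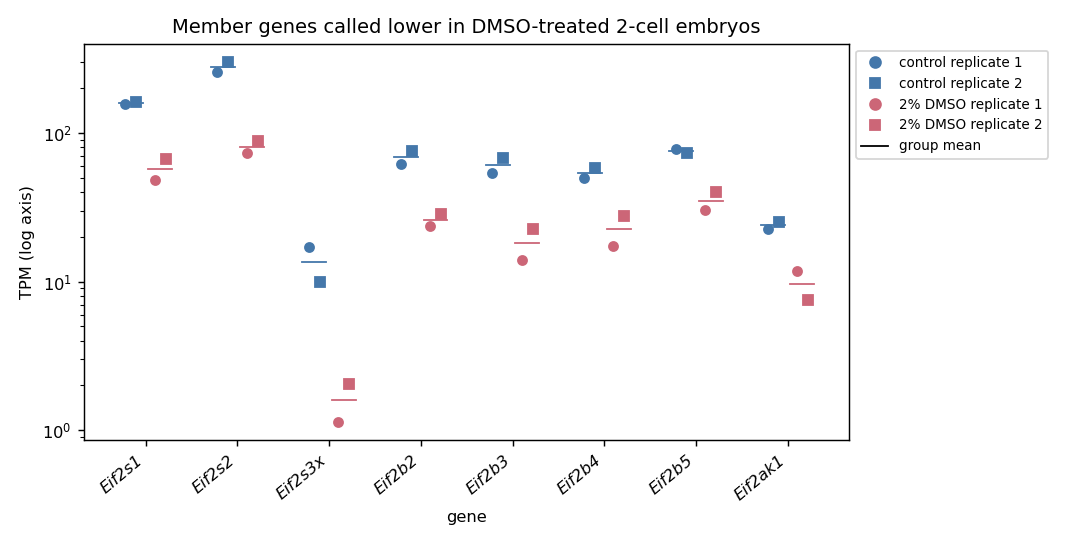
TPM (y axis, log scale) of the 8 called members (x axis) in each library; circles are replicate 1, squares replicate 2 and bars group means. For all 8 genes both DMSO libraries lie below both control libraries. The first gene, Eif2s1, is at 48.4 and 66.6 against 158 and 162 TPM. The last, Eif2ak1, is at 11.8 and 7.49 against 22.7 and 25.2 TPM.

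Of the 4 eIF2alpha kinases, 1 was called lower and 0 higher, beside 14.1% and 6.42% of all genes tested. Eif2ak1 (HRI, chromosome 5 from 143817788 to 143904251), the most abundant of them in control embryos, fell from 22.7 and 25.2 TPM to 11.8 and 7.49 TPM (log2 fold change -1.26, standard error 0.32, adjusted p = 0.0412). It was not called after quantile normalization or without DMSO replicate 2. Its log2 fold change ran from -1.34 to -1.11 over the alternatives with all 4 libraries and from -1.55 to -0.96 with 1 library left out. Eif2ak3 (PERK, chromosome 6 from 70844515 to 70905245) was at 7.75 and 5.10 TPM in control and at 9.68 and 10.5 TPM in DMSO-treated embryos. The groups did not overlap, and the difference did not pass the test (log2 fold change 0.60, 95% interval -0.19 to 1.39, adjusted p = 0.213). Eif2ak2 (PKR) was low, at 1.76 and 2.08 TPM against 3.77 and 2.80 TPM, without overlap and without a call (log2 fold change 0.55, adjusted p = 0.260). Eif2ak4 (GCN2) was at 5.68 and 1.84 TPM against 0.856 and 2.06 TPM, with overlapping groups (log2 fold change -0.87, adjusted p = 0.238). Hence PERK was the most abundant kinase transcript in DMSO replicate 2, whereas HRI was the most abundant in the other 3 libraries.

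The phosphatase subunits that return eIF2alpha to its unphosphorylated state differed in level. Ppp1r15b (CReP), the constitutive subunit, was at 52.7 and 49.4 TPM in control and at 27.6 and 38.9 TPM in DMSO-treated embryos. Both DMSO libraries were below the controls, without passing the test (log2 fold change -0.62, 95% interval -1.31 to 0.066, adjusted p = 0.153). Ppp1r15a (GADD34), the subunit induced by stress, was at 0.581 and 0.138 TPM in control and at 0.300 TPM and listed at 0 in the DMSO libraries, and it was too low to be tested.

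In the ATF4 branch, 0 of the 6 genes tested were called, and the unadjusted p-value was under 0.05 for 0 of them, beside 4835 of all 12038 genes tested. Atf4 (chromosome 15 from 80255184 to 80257541) was one of the abundant transcripts of these embryos, near the 96.0th percentile of the genes above 0 TPM in control and the 96.5th in DMSO-treated embryos. It was at 187 and 167 TPM in control and at 151 and 173 TPM in DMSO-treated embryos. The groups overlapped, and the log2 fold change was -0.13 (95% interval -0.71 to 0.46, adjusted p = 0.719) and turned to 0.15 after quantile normalization. Within a library, which needs no scaling between libraries, the ratio of Atf4 to Eif2s1 was 1.18 and 1.04 in control and 3.13 and 2.60 in DMSO-treated embryos. Eif2s1 was called lower and Atf4 was not called, so the higher ratio restates the lower Eif2s1 values. For this ratio and 4 others the two-sided exact permutation test gave p = 0.333, the smallest value that 2 libraries against 2 allow. Ddit3 (CHOP), the transcription factor induced under lasting ER stress, was at 1.20 and 4.35 TPM against 0.925 and 1.51 TPM (log2 fold change -0.65, adjusted p = 0.353). Asns, which makes asparagine and is a classical Atf4 target, was at 0.215 and 2.59 TPM against 0.0186 and 1.23 TPM, and the spread between libraries of a group exceeded the difference (log2 fold change -0.47, adjusted p = 0.595). Both were therefore low and overlapping in the 2 groups. Of the remaining targets, Sesn2, an inhibitor of mTORC1, was at 86.3 and 108.7 TPM against 59.6 and 87.3 TPM, and Trib3, a pseudokinase that restrains Atf4, at 34.0 and 23.7 TPM against 19.1 and 18.1 TPM. Chac1, which degrades glutathione, lay between 1.04 and 2.31 TPM, and Atf3, which was not tested, reached 0.650 TPM at most. Their log2 fold changes, where tested, ran from -0.58 to 0.44, and the groups of Sesn2 overlapped while those of Trib3 and Chac1 did not.

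For the sensors of the other branches the groups overlapped. Ern1 (IRE1) was at 11.3 and 9.76 TPM in control and at 16.9 and 10.9 TPM in DMSO-treated embryos (log2 fold change 0.34, 95% interval -0.45 to 1.14, adjusted p = 0.457). Atf6 was at 1.15 and 1.47 TPM against 2.16 and 0.835 TPM (log2 fold change 0.064, 95% interval -0.89 to 1.02, adjusted p = 0.913). Xbp1, the substrate of IRE1, was listed at 0 and at 0.331 TPM in control and at 0.117 and 0.366 TPM in DMSO-treated embryos, and it was not tested.

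Of the 12 ER chaperones and genes of ER-associated degradation (ERAD), 10 were tested and 0 were called, with 0 at an unadjusted p-value under 0.05, which 4835 of the 12038 genes tested reached. Hspa5 (BiP, chromosome 2 from 34771970 to 34777547), the master chaperone of the ER and the usual readout of this response, was at 145 and 198 TPM in control and at 180.3 and 206 TPM in DMSO-treated embryos. The groups overlapped (log2 fold change 0.18, 95% interval -0.46 to 0.83, adjusted p = 0.629). Canx, the membrane lectin chaperone, was at 95.1 and 97.3 TPM against 98.1 and 90.3 TPM (log2 fold change -0.030, 95% interval -0.61 to 0.55, adjusted p = 0.933). Its soluble partner Calr was at 101 and 59.6 TPM against 145 and 111 TPM. Both DMSO libraries were higher, and the difference did not pass the test (log2 fold change 0.70, 95% interval -0.11 to 1.50, adjusted p = 0.168). With the replicate number as a block in the model, Calr was called higher, as were 17.9% of all genes tested. Dnajb9 (ERdj4), a co-chaperone of BiP that restrains IRE1, was the most abundant of the 12 at 224 and 306 TPM against 249 and 313 TPM. The disulphide isomerases Pdia3 (5.30 and 4.80 against 8.78 and 7.87 TPM) and Pdia4 (19.3 and 15.8 against 25.5 and 26.9 TPM) did not overlap between groups and were not called (adjusted p = 0.173 and 0.181), while Pdia6 overlapped. Dnajc3 (p58IPK), a co-chaperone that inhibits PERK and PKR, was at 13.9 and 19.4 TPM against 9.72 and 9.53 TPM (log2 fold change -0.71, adjusted p = 0.135). Sel1l, a subunit of the ERAD ligase, and Hyou1, an exchange factor of BiP, overlapped, with log2 fold changes of -0.086 and -0.040, and Hyou1 turned to 0.019 without mitochondrially encoded genes. Hsp90b1 (GRP94), an abundant ER chaperone in most cells, was at 1.05 and 0.915 TPM against 0.946 and 0.589 TPM, and Herpud1 at 0.181 and 0.0803 TPM in control and listed at 0 in both DMSO libraries, and neither was tested. Among the 5 tested members with the ERSE letters shown above, 2 were above 0 and 3 below, with log2 fold changes from -0.71 (Dnajc3) to 0.70 (Calr), and Canx turned positive with median-ratio scaling (0.017), quantile normalization (0.24) or mitochondrially encoded genes left out (0.066).

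**Figure D3:**
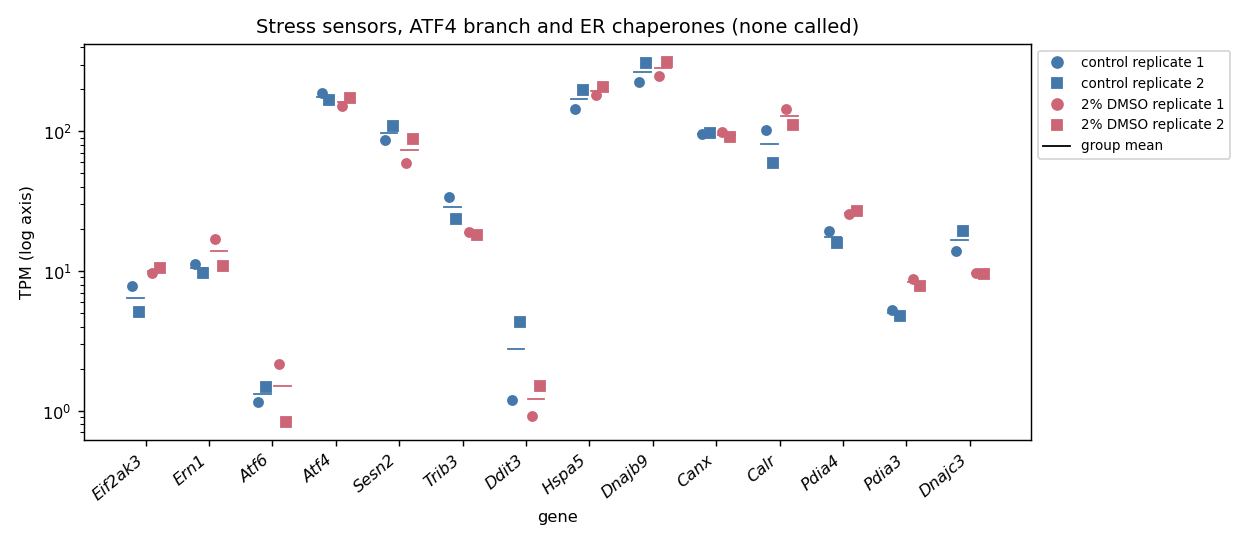
TPM (y axis, log scale) of 14 members that were not called (x axis) in each library; circles are replicate 1, squares replicate 2 and bars group means. Atf4, Hspa5, Dnajb9 and Canx overlap between groups at 90.3 TPM or more, while both DMSO libraries of Calr, Pdia3 and Pdia4 lie above the controls and both of Dnajc3 below.

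The wider pathways were described with 4 further lists, which hold 120 genes of the table and 97 tested. limma called 19 lower (19.6%) and 5 higher (5.15%), beside 14.1% and 6.42% of all genes tested, and the median log2 fold change was -0.37. The same background holds for the share called in each list. The background depends on level: with a filter at a mean of 5 TPM, limma called 22.5% of genes lower and 10.3% higher. The lists were not matched to the background by level. Of 18 other targets of Atf4 and CHOP, 3 were called lower (16.7%) and 0 higher. Nupr1, a stress-induced chromatin protein, fell from 57.6 and 41.0 TPM to 3.07 and 6.69 TPM (log2 fold change -3.15, adjusted p = 0.0181). Psat1, of serine synthesis, fell from 307 and 293 TPM to 92.1 and 114.9 TPM (log2 fold change -1.53, adjusted p = 0.0209), and Ddit4 (REDD1), an inhibitor of mTORC1, from 18.1 and 15.8 TPM to 7.21 and 6.01 TPM. Of the 18, 10 were below 0, as were 6401 of the 12038 genes tested. Mthfd2, of mitochondrial folate metabolism, was at 113 and 57.9 TPM against 236 and 129 TPM and was not called (adjusted p = 0.108). It was chosen for mention after its values were seen.

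Of 21 other regulators of eIF2 and of the sensors, 18 were below 0, as were 6401 of the 12038 genes tested, and 4 were called lower (19.0%) and 2 higher (9.52%). Mcts1, which acts with Denr in recycling and reinitiation, fell from 43.4 and 49.9 TPM to 4.96 and 6.50 TPM (log2 fold change -2.83, adjusted p = 0.0181). The adaptor Nck1 was at 27.0 and 30.2 TPM against 6.59 and 8.13 TPM (log2 fold change -1.83), and the ER-anchored phosphatase Ptpn1 at 42.7 and 33.8 TPM against 10.4 and 13.3 TPM (log2 fold change -1.61), and both were called lower. Creb3l4, an ER-anchored transcription factor related to Atf6, rose from 37.7 and 11.8 TPM to 144 and 75.6 TPM (log2 fold change 2.24, adjusted p = 0.0397), and Wfs1, an ER membrane protein, from 0.978 and 0.566 TPM to 5.61 and 2.74 TPM (log2 fold change 1.50, adjusted p = 0.0462). In both the libraries of a group differed widely, but the groups did not overlap. Wfs1 averaged 0.77 TPM in control and 4.18 TPM in DMSO-treated embryos. It passed the filter on low values only through the DMSO libraries, and its call rests on that.

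Of 24 other ERAD genes, 5 were called lower (20.8%) and 2 higher (8.33%). Faf2 (21.8 and 21.0 against 7.21 and 6.10 TPM) and Ubxn4 (230 and 252 against 93.0 and 113.6 TPM), which recruit the extracting ATPase Vcp, and the ubiquitin-conjugating enzyme Ube2j2 (287 and 227 against 101 and 130 TPM) fell. The ubiquitin ligase Rnf5 rose from 5.91 and 2.09 TPM to 60.4 and 23.0 TPM (log2 fold change 3.05, adjusted p = 0.0232), with 37.1% of its 31-base words shared with other genes. Of 34 other genes of ER folding, protein entry and glycosylation, 7 were called lower (20.6%) and 1 higher (2.94%). Ssr4 (79.4 and 106 against 17.7 and 35.03 TPM) and Ssr2 (146 and 188 against 54.5 and 70.8 TPM), subunits of the translocon-associated complex, and Serp1 (122 and 129.8 against 33.1 and 49.1 TPM) were the most reduced without overlap, with log2 fold changes of -1.84, -1.40 and -1.62. Sec61b, a subunit of the translocation channel, rose from 49.7 and 37.4 TPM to 150 and 116 TPM (log2 fold change 1.59, adjusted p = 0.0223, 23.5% of words shared).

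**Figure D4:**
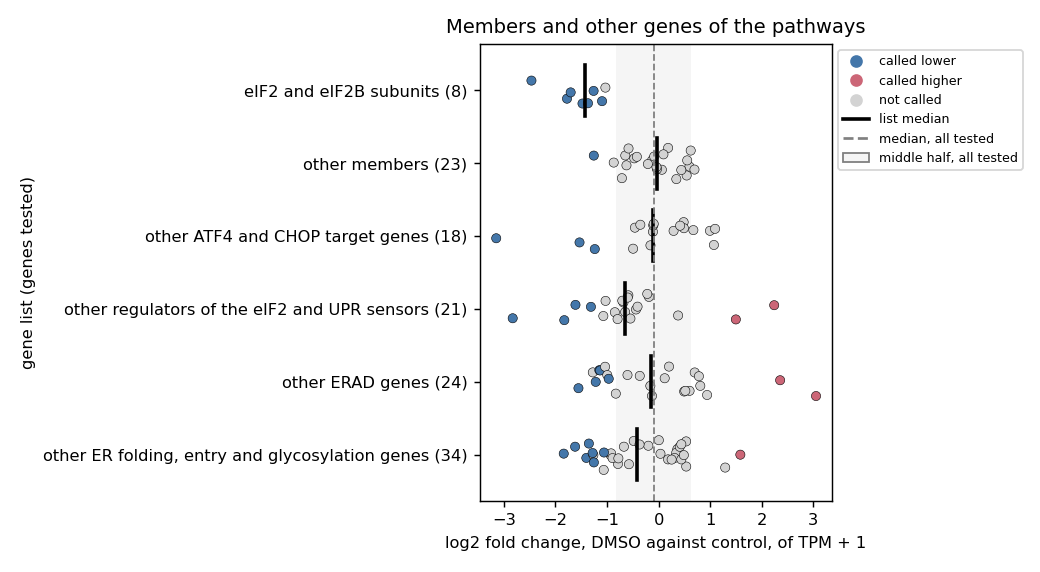
Log2 fold changes of TPM + 1 (x axis) of the genes tested in each list (y axis), with blue and red points called lower and higher, black bars at the list medians and, for all genes tested, the median (dashed) and the range between the quartiles (shaded). The eIF2 and eIF2B subunits have a median of -1.42 and the other members of -0.040, and the 4 further lists have medians from -0.65 to -0.098.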

How the data were processed

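The members and gene lists were chosen with earlier results of these data known. Per the labels, cDNA of embryos was amplified with a SMARTer kit and sequenced on an Illumina HiSeq sequencer. The authors pseudoaligned the reads to Ensembl transcripts of GRCm38 by kallisto, and tximport gave sums per gene; the deposited values are TPM. They are not counts, so limma 3.58.1 (R 4.3.3; lmFit, eBayes with a trend, no replicate block) was fitted to log2(TPM + 1) of the 12038 genes averaging 1 TPM or more. The authors used DESeq2. The steps were tested on simulated data. TPM keeps no depth, and no counting error was derived. Coordinates are from GENCODE M21 (GRCm38); 29668 identifiers had a gene name and 381 had none. Values in every library are given for called members and for a fixed set of pathway genes, and for up to 3 called genes in each direction without overlap from each further list, except that 1 of these genes is not reported here. Shared reads were assessed as 31-base words, on either strand, found in transcripts of other genes. Alternatives were other pseudocounts, filters, variance models and scalings, the replicate block, and leaving out each library. Tables and plots were made in Python 3.11.15 (numpy 2.4.6, pandas 2.3.3, matplotlib 3.10.9), and permutation tests in scipy 1.17.1. Protein sequences were not used here.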

Additional observations from a re-analysis of the deposited data

How the results depend on the processing

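The 8 called members stayed below 0 under all 14 alternatives. Their groups did not overlap, so the sign could not turn when a library was left out. Nor could it turn with another filter, pseudocount or variance model, or with the replicate block alone. Only the alternatives with another scaling could have changed it. With no filter on low values 0 members (0 eIF2 or eIF2B subunits and 0 others) and 0 and 0 of the other pathway genes were called lower and higher, and the member median was -0.19. With quantile normalization 5 members, all subunits of eIF2 or eIF2B, and 0 others were called lower, with 12 other pathway genes, and the medians were -0.14 for members and -1.15 for the subunits. With a pseudocount of 0.1 the subunit median was -1.62. Without 1 library, limma (the lone library of a group being assumed to vary like the other group) called 0 to 7 members lower, 0 to 7 subunits, 0 other members, 0 to 13 other pathway genes lower and 0 to 4 higher, with medians of -0.55 to -0.15 for members and -1.64 to -1.32 for subunits. Same-numbered libraries share only a number, and their deviations from the group means correlated across the genes tested (r = 0.354, 2 pairs). With the replicate block, 5132 genes in place of 2470 were called (24.8% lower and 17.9% higher), and 8 members lower and 1, Calr, higher, with 31 and 11 other pathway genes. The block with median-ratio scaling (23.7% and 19.1%) gave 1 member higher and 31 and 11 other pathway genes, and with quantile normalization (19.8% and 19.6%) 2 members higher (Calr and Pdia4), 16 other pathway genes higher and medians of -0.14 and -1.15. These combinations were chosen after results had been seen.

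Members that were not called changed sign as follows. With quantile normalization, with or without the block, Atf4 was at 0.15 and Canx at 0.24, and with median-ratio scaling, with or without it, Canx was at 0.017. Without mitochondrially encoded genes Canx was at 0.066 and Hyou1 at 0.019. When 1 library at a time was left out, the log2 fold change ran from -2.30 to 0.24 for Eif2b1, from -1.25 to 0.31 for Asns, from -0.33 to 0.46 for Atf6, from -0.040 to 0.41 for Hspa5, from -0.090 to 0.029 for Canx, from -0.13 to 0.32 for Dnajb9, from -0.57 to 0.39 for Sel1l and from -0.17 to 0.086 for Hyou1. The cause of these changes was not tested. TPM gives no depth, so how far counting error limits the genes near 1 TPM is unknown.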

Other observations

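All genes whose promoters hold the motif letters, members included, were looked up after the members had been described. ERSE was found for 37 genes, of which 17 were tested, 5 of them members. Of the 17, 11 were above 0 and 6 below in DMSO-treated embryos, and their median log2 fold change was 0.70, beside -0.089 over all genes tested. limma called 0 of the 17, and the unadjusted p-value was under 0.05 for 5, beside 4835 of all 12038 genes tested. ERSE-II was found for 12 genes, of which 7 were tested, with 6 below 0, 3 called lower, 0 called higher and a median of -0.34. UPRE was found for 193 genes, of which 81 were tested, with 49 below 0, 15 called lower, 3 called higher and a median of -0.33. The letters TGATGNAA were found for 1219 genes, of which 250 were tested, 4 of them members, with 29 called lower, 22 called higher and a median of 0.13. Over all genes tested, 14.1% were called lower and 6.42% higher.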
